A study of Homo sapiens with 8 samples.

Results

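The MYC, MAX and MXD network is a set of transcription factors that pair through a helix-loop-helix and leucine zipper domain and read the same short DNA site, the E-box CACGTG. MYC binds DNA as a pair with MAX and activates genes of growth and ribosome production. MXD1, MXI1, MXD3, MXD4 and MNT compete for MAX and recruit the SIN3 corepressor to the same sites. MGA pairs with MAX in a polycomb repressor complex. MLX is a relative of MAX that pairs with MLXIP (also called MondoA), a sensor of glucose phosphates, and with some of the MXD proteins and MNT. In multiple myeloma, a cancer of plasma cells, MYC is often activated by rearrangement and is kept transcribed with the help of IRF4 and BET bromodomain proteins.

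Transcripts of these 10 genes, of 21357 genes named in the platform's table, were read by 30 of the 54675 probe sets of the HG-U133 Plus 2.0 array, taken as every probe set that the platform's gene table annotates to MYC, MAX, MXD1, MXD3, MXD4, MXI1, MNT, MLX, MLXIP or MGA. The study treated 2 established human myeloma lines, MM1S and OPM1, with Zalypsis, a DNA-binding compound of marine origin, at 5 nM. Cells were lysed for RNA at the start of death, at 15 to 20% dead cells, and control cells of each line were run beside them. The 8 arrays form 4 groups of 2: Zalypsis-treated MM1S, control MM1S, Zalypsis-treated OPM1 and control OPM1. The labels name no separate cultures, so the p-values reflect variation among arrays that may be technical only.

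Signals are linear brightness values from the dChip program, and the level of one probe set cannot be set against that of another. Log2 changes were taken on log2(signal + 32), which understates changes of dim probe sets. A change was called where limma's adjusted p was under 0.05. Genes stand on their brightest probe set, and 11865 of 19775 genes were bright enough to be tested. Of the 30 probe sets, 18 were tested, 9 were too dim and the 3 of MXD4 also carry the name of a microRNA gene inside it, so they entered only an added fit chosen after the data were seen.

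Arrays of a group correlated at 0.988 to 0.993 and arrays of different groups at 0.801 to 0.963. OPM1 control 1 stood apart in RNA integrity, with a 3′ to 5′ signal ratio of 2.26 for GAPDH and 5.80 for ACTB, against at most 1.06 and 2.62 on the other arrays. Without it, the counts of network genes called were the same in each of the 4 comparisons. The labelled cell type was only partly borne out: the summed signal of 8 plasma cell markers was 23867 to 33792 on the MM1S arrays and 3843 to 5308 on the OPM1 arrays, where the defining marker SDC1 lay at 6.56 to 14.0. The summed signal of 6 B-lineage markers was 68.5 to 103 on the MM1S arrays, 3866 to 4860 on the treated OPM1 arrays and 7980 to 8925 on the control OPM1 arrays. The cells are therefore called OPM1-labelled. In bulk RNA, fewer cells of a type and less RNA per cell cannot be told apart. The 5 monocyte markers summed to 122 to 167 on the treated OPM1 arrays, against 45.1 to 59.1 on the control OPM1 arrays, with CD14 at 122.8 and 74.4, against 5.82 and 4.89. The higher sum is that of CD14: the other 4 monocyte markers, LYZ, CSF1R, FCN1 and S100A9, lay at 5.53 to 28.6 on the OPM1 arrays. The 5 T and NK cell markers summed to 133.2 to 134.3 on the treated and 79.5 to 91.3 on the control OPM1 arrays, and the part of other cells in the results was not tested.

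Poly-A control transcripts, added before labelling, had a geometric mean signal of 1862 and 1349 on the treated OPM1 arrays, against 299.7 and 448 on the control OPM1 arrays, and of 19.7 to 25.7 on the MM1S arrays, which is near the median of all probe sets. Scaled by them, the median log2 change of all genes in OPM1-labelled cells was -0.95 instead of -0.07, and 36 genes were higher instead of 3012. Changes called higher in OPM1-labelled cells below are therefore relative to the other transcripts of the array. By its brightest set, no gene named below was called higher in these cells with that scaling. In MM1S the same scaling gave a median of -0.18 instead of 0.02. With the controls near background there, it cannot decide on changes in MM1S. Nor can it decide on differences between the lines, which use the MM1S arrays too. Lower calls made up 56.2% of all calls in MM1S and 60.3% in OPM1-labelled cells, but 45.6 and 45.8% after quantile normalization and 78.0 and 99.6% with the poly-A scaling. Quantile normalization gave medians of 0.07 and 0.10.

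Of the 9 member genes tested, 3 rose and 4 fell in MM1S with Zalypsis, where 37.6% of all genes were called, 16.4% higher and 21.1% lower. MYC, MXI1, MLXIP and MGA fell, MXD1, MXD3 and MNT rose, and MAX and MLX were not called. In OPM1-labelled cells 2 rose and 6 fell, where 63.9% of all genes were called, 25.4% higher and 38.5% lower. MYC, MAX, MXI1, MLX, MLXIP and MGA fell, MXD1 and MXD3 rose, and MNT was not called. MXD3 was bright enough to be tested through MM1S, so its rise in OPM1-labelled cells, though counted, is a description only. The median log2 change of the 9 genes was -0.37 in MM1S and -0.97 in OPM1-labelled cells, against 0.02 and -0.07 for all genes. Over the 18 probe sets the counts were 4 higher and 6 lower in MM1S, where 35.4% of all probe sets were called, 14.1% higher and 21.3% lower, and 1 higher and 11 lower in OPM1-labelled cells, where 62.5% were called, 23.4% higher and 39% lower. The count of rises among genes in MM1S was 1 without MM1S control 2 or without MM1S Zalypsis 1, and 1 with the poly-A scaling. In OPM1-labelled cells it was 0 without OPM1 control 2, without OPM1 Zalypsis 1 or with the poly-A scaling.

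**Figure D1:**
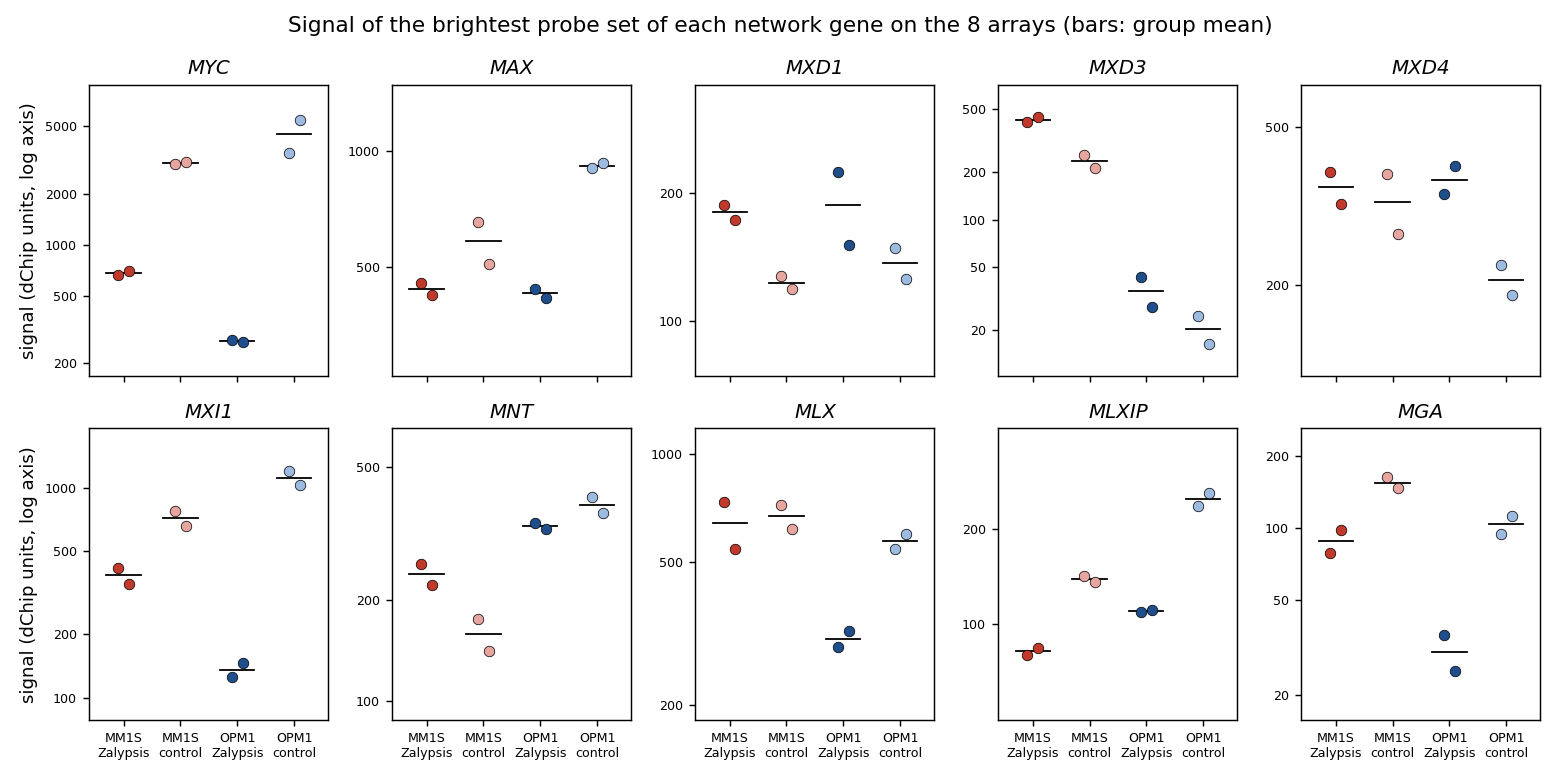
Signal (log axis) of the brightest probe set of each of the 10 genes on the 8 arrays, with a bar at each group mean. MYC and MXI1 lie lower on the treated OPM1 arrays than on any other array, while MXD1 and MXD3 lie higher on the treated arrays of both lines than on their controls (with the poly-A scaling, lower in OPM1-labelled cells).

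The network's own promoters are shown first, since its members can bind sites in each other's genes and the letters of that site can be read directly. RefSeq (GRCh38.p14) gave a promoter window for 9 of the 10 genes, 14 windows in all, and the 250 bases before each gene start were searched for CACGTG, which reads the same on both strands. It was present in 3 of the 14 windows, against 6.34% of 35116 windows of that length over all genes. The 3 belong to MXD4 (chr4:2262110-2262359, minus strand), MNT (chr17:2401061-2401310, minus strand) and MLX (chr17:42566850-42567099, plus strand), and the site begins 238, 193 and 50 bases before the gene start, in that order. Each is printed 5′ to 3′ along the gene, with the E-box in capitals.
MXD4: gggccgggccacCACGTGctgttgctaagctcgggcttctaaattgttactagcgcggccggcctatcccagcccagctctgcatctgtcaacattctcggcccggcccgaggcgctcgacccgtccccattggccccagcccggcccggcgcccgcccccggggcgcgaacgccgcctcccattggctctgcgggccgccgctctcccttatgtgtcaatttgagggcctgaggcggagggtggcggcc
MNT: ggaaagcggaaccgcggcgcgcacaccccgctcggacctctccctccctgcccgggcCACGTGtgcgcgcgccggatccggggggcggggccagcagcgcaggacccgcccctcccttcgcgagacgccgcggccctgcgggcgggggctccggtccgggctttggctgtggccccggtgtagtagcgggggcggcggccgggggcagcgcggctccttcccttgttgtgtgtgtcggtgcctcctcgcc
MLX: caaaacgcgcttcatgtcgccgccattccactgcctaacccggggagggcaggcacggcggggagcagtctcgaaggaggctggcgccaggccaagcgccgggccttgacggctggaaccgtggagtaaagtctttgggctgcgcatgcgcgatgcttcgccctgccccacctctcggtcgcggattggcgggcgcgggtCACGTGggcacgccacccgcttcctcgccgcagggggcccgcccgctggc
A match is a run of letters and not a measured binding site. These 3 genes did not move as one: MNT rose in MM1S and was not called in OPM1-labelled cells, while MLX was not called in MM1S and fell in the other line.

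MYC fell in both lines. Its single probe set, 202431_s_at, read 660 and 697 on the treated MM1S arrays, against 2981 and 3063 on the control MM1S arrays. It read 273 and 268 on the treated OPM1 arrays, against 3479 and 5475 on the control OPM1 arrays. In each line both treated arrays lay below both controls, and the treated mean was 0.225 times the control mean in MM1S and 0.0605 times in OPM1-labelled cells. The log2 change was -2.10 ± 0.17 (SE, adjusted p = 1.6e-09) in MM1S and -3.86 ± 0.17 (adjusted p = 2.0e-14) in OPM1-labelled cells. The OPM1 controls differed from each other by more than the MM1S controls, and the lower one is OPM1 control 1, without which the change in OPM1-labelled cells was -4.18. PVT1, the noncoding neighbour of MYC that competes with it for enhancers, was too dim to be tested, at 8.29 to 27.5 on the 8 arrays. Of the related MYC family genes, MYCN was also too dim, at 5.97 to 51.1. MYCL was tested, at 47.5 to 77.9 on the MM1S arrays and 247 to 332 on the OPM1 arrays. It was not called with Zalypsis in either line.

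The 5 genes with the pattern most like that of MYC over the 8 arrays were FRYL, GALNT2, RAPGEF6, MBNL1 and ANKRD11, by the Euclidean distance between log2 values centred on each gene's mean. Their distances were 0.654 to 0.814, against a median of 4.56 over all tested genes. MBNL1, a splicing regulator, read 548 and 619 on the treated MM1S arrays, against 1948 and 1794 on the control MM1S arrays, and 115 and 129 on the treated OPM1 arrays, against 2187 and 3186 on the control OPM1 arrays. GALNT2, an enzyme that starts mucin-type sugar chains, had log2 changes of -1.85 in MM1S and -3.96 in OPM1-labelled cells. In RefSeq these 5 genes span 211 to 283 kb each, MYC spans 7.52 kb and the median tested gene 28.3 kb.

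MAX, the shared partner, fell in OPM1-labelled cells and was not called in MM1S. Its brightest probe set, 209332_s_at, read 454 and 423 on the treated MM1S arrays, against 654 and 509 on the control MM1S arrays, a log2 change of -0.37 ± 0.15 that was not called (adjusted p = 0.0626). It read 439 and 415 on the treated OPM1 arrays, against 904 and 927 on the control OPM1 arrays (log2 -1.05 ± 0.15, adjusted p = 3.5e-06). The treated arrays lay below the controls in both lines, with a narrow gap in MM1S. There, without MM1S control 2, the change was -0.54 and called (adjusted p = 0.0157), and it was also called after quantile normalization (-0.29). The second bright set, 209331_s_at, gave -0.38 in MM1S and -0.75 in OPM1-labelled cells, of which the second was called (adjusted p = 0.0012) in the fit of all probe sets. The dimmer 210734_x_at gave -0.24 in each line and was called in neither, and the other 2 lay at 10.04 to 41.2.

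Among the MXD repressors, MXI1 moved against MXD1, MXD3 and MXD4. The probe set of MXI1, 202364_at, read 416 and 349 on the treated MM1S arrays, against 777 and 657 on the control MM1S arrays (log2 -0.85 ± 0.16, adjusted p = 1.6e-04). On the treated OPM1 arrays it read 125 and 146, against 1201 and 1033 on the control OPM1 arrays (log2 -2.78 ± 0.16, adjusted p = 1.0e-12). The groups did not overlap in either line, and the treated OPM1 mean was 0.122 times its control mean, the deepest fall among the brightest sets after that of MYC.

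MXD1, which replaces MYC on MAX when cells stop dividing and differentiate, is read by 2 bright probe sets. The brightest set, 226275_at, read 188 and 172 on the treated MM1S arrays, against 127 and 119 on the control MM1S arrays (log2 0.45 ± 0.15, adjusted p = 0.0206). It read 224 and 151 on the treated OPM1 arrays, against 148 and 125 on the control OPM1 arrays (log2 0.36 ± 0.15, adjusted p = 0.0399). The groups did not overlap, but the nearest OPM1 arrays were 151 and 148. The call in MM1S was lost without MM1S control 1 (log2 0.49), MM1S control 2 (0.41) or MM1S Zalypsis 1 (0.40). It was also lost with the poly-A scaling (0.31), whose controls lie near background on the MM1S arrays. The call in OPM1-labelled cells was lost without OPM1 control 2 (0.26) or OPM1 Zalypsis 1 (0.12), and with the poly-A scaling the value was -0.78.

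The other bright set of MXD1, 228846_at, moved more. It read 104 and 124 on the treated MM1S arrays, against 42.6 and 37.7 on the control MM1S arrays, and 339 and 328 on the treated OPM1 arrays, against 111 and 94.0 on the control OPM1 arrays. The treated means were 2.84 and 3.25 times the control means, with log2 changes of 1.01 ± 0.13 (adjusted p = 3.7e-05) and 1.44 ± 0.13 (adjusted p = 3.2e-07) in the fit of all probe sets. With the poly-A scaling the change was 1.18 in MM1S and -0.21 in OPM1-labelled cells. The third set, 206877_at, lay at 1.00 to 2.62 on all arrays.

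MXD3, a repressor expressed in dividing cells, rose in MM1S. Its only probe set, 221250_s_at, read 414 and 447 on the treated MM1S arrays, against 259 and 214 on the control MM1S arrays (log2 0.79 ± 0.14, adjusted p = 1.1e-04). On the treated OPM1 arrays it read 43.0 and 27.7, against 24.5 and 16.2 on the control OPM1 arrays (log2 0.36 ± 0.14, adjusted p = 0.0310). These OPM1 signals lie near or under the 27.3 that a gene's mean had to reach to be tested. The gene passed through MM1S, so its change in OPM1-labelled cells is a description only. The OPM1 call was lost without OPM1 control 2 (0.24) or OPM1 Zalypsis 1 (0.19), and with the poly-A scaling the value was -0.18.

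All 3 probe sets of MXD4 rose in OPM1-labelled cells and 1 of them in MM1S, but none rose in OPM1-labelled cells with the poly-A scaling. The set 210778_s_at read 175 and 170 on the treated MM1S arrays, against 73.3 and 71.9 on the control MM1S arrays, and 151 and 144 on the treated OPM1 arrays, against 42.4 and 38.0 on the control OPM1 arrays. In the added fit its log2 changes were 0.97 ± 0.12 (adjusted p = 2.2e-05) and 1.32 ± 0.12 (adjusted p = 2.9e-07). The other sets, 212346_s_at and 212347_x_at, gave 0.29 and 0.12 in MM1S, which were not called, and 0.89 and 0.74 in OPM1-labelled cells, which were. In that fit 35.4% of probe sets were called in MM1S and 62.4% in OPM1-labelled cells. With the poly-A scaling the 3 values in OPM1-labelled cells were -0.07, -0.13 and -0.76, and that of 212347_x_at in MM1S was -0.09.

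MNT, the most widely expressed of the repressors, had opposite signs in the lines. Its bright set, 204206_at, read 256 and 221 on the treated MM1S arrays, against 176 and 141 on the control MM1S arrays (log2 0.51 ± 0.15, adjusted p = 0.0079). It read 339 and 325 on the treated OPM1 arrays, against 406 and 363 on the control OPM1 arrays (log2 -0.19 ± 0.15, adjusted p = 0.259). Treated arrays lay above the controls in MM1S and below them in OPM1-labelled cells. The rise in MM1S was not called without MM1S control 2 (0.38) or MM1S Zalypsis 1 (0.42). With the poly-A scaling, whose controls lie near background on the MM1S arrays, it was not called either (0.37). Nor was it as the mean of both MNT sets (0.21), but the other set, 236749_at, is dim, at 13.0 to 30.7, and can mask a change. In OPM1-labelled cells the sign turned after quantile normalization (0.17).

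MLX, the partner of MLXIP, was not called in MM1S but fell in the OPM1-labelled line, though its probe sets differed. The brightest, 213708_s_at, read 739 and 546 on the treated MM1S arrays, against 724 and 621 on the control MM1S arrays, groups that overlap (log2 -0.07 ± 0.16, adjusted p = 0.763). It read 291 and 322 on the treated OPM1 arrays, against 545 and 602 on the control OPM1 arrays (log2 -0.84 ± 0.16, adjusted p = 1.1e-04). The set 217910_x_at also fell there (log2 -0.84). The set 217909_s_at, at 194 and 272 on the treated OPM1 arrays, against 173 and 299 on the control OPM1 arrays, did not (0.01, adjusted p = 0.972), nor did the dimmer 210752_s_at (-0.17). The mean of all MLX sets gave -0.26 in OPM1-labelled cells, which was not called (adjusted p = 0.0624). That mean also holds dim sets near background, which can mask a change.

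MLXIP fell in both lines. The set 225157_at read 80.1 and 84.5 on the treated MM1S arrays, against 142 and 136 on the control MM1S arrays (log2 -0.58 ± 0.12, adjusted p = 6.8e-04), and 110 and 111 on the treated OPM1 arrays, against 236 and 258 on the control OPM1 arrays (log2 -0.97 ± 0.12, adjusted p = 4.3e-07). No treated array reached a control of its line. The second set, 202519_at, gave -0.33, not called, in MM1S and -1.29 (adjusted p = 7.8e-06) in OPM1-labelled cells.

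MGA, the largest of the network's proteins, fell in both lines by each of its 3 tested sets. The brightest by mean, 235409_at, read 79.0 and 97.9 on the treated MM1S arrays, against 163 and 147 on the control MM1S arrays (log2 -0.64 ± 0.13, adjusted p = 6.1e-04). It read 35.6 and 25.3 on the treated OPM1 arrays, against 94.98 and 113 on the control OPM1 arrays (log2 -1.12 ± 0.13, adjusted p = 1.7e-07). The set 212945_s_at moved most, at 8.05 and 13.7 on the treated OPM1 arrays, against 170 and 137 on the control OPM1 arrays, and 48.1 and 62.4 on the treated MM1S arrays, against 160 and 179 on the control MM1S arrays. Its log2 changes were -2.11 and -1.21, and those of 230848_s_at were -1.38 and -0.57, in OPM1-labelled cells and MM1S.

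**Figure D2:**
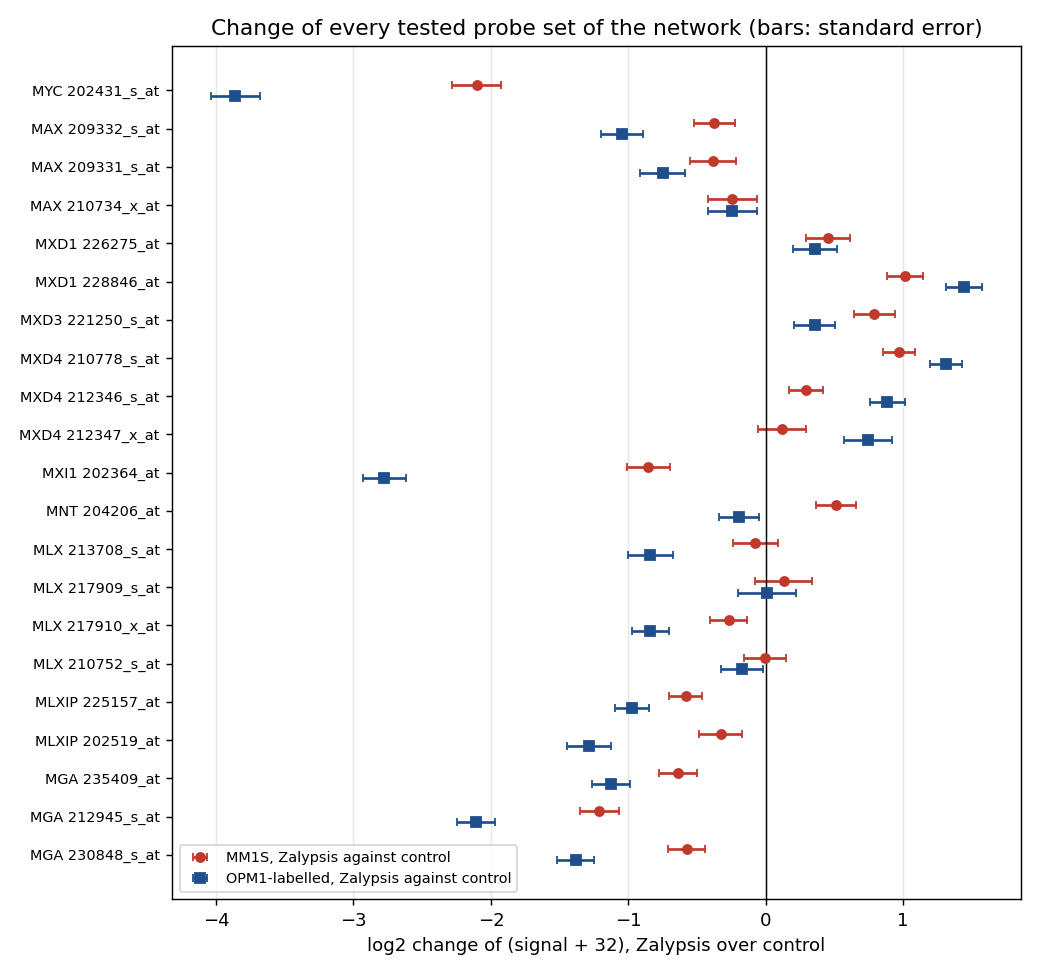
Log2 change of signal + 32, Zalypsis over control, for each probe set of the network in the tests, with standard errors, in MM1S (circles) and OPM1-labelled cells (squares); the MXD4 sets come from the added fit. The sets of MYC, MXI1, MLXIP and MGA lie left of 0 and those of MXD1, MXD3 and MXD4 right of it in both lines, but with the poly-A scaling those of MXD1, MXD3 and MXD4 lie left of 0 in OPM1-labelled cells and 212347_x_at also in MM1S.

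The response differed between the lines for 6 of the 9 genes, each of the 6 lower in OPM1-labelled cells, where 46.6% of all genes were called, 31.2% lower. MXD4, in the added fit, went the other way with 0.62 (adjusted p = 0.0336), but it was at -0.67 and not called with the poly-A scaling. The difference, OPM1-labelled minus MM1S, was -1.92 ± 0.22 for MXI1 (adjusted p = 4.6e-07) and -1.76 ± 0.24 for MYC (adjusted p = 3.8e-06), and both were called in every alternative run. It was -0.77 for MLX, -0.71 for MNT, -0.67 for MAX and -0.48 for MGA, with adjusted p of 0.0093, 0.0074, 0.0148 and 0.0409. The call for MLX was lost without MM1S Zalypsis 1 (-0.56), and that for MAX without MM1S control 2 (-0.50), MM1S Zalypsis 1 (-0.63) or OPM1 Zalypsis 2 (-0.64). MGA was called only narrowly: its call was lost without either MM1S control, without MM1S Zalypsis 2, without OPM1 control 2 and without OPM1 Zalypsis 2 (-0.55 to -0.36), and with the poly-A scaling the value was 0.0081. The other sets of MGA gave -0.90 and -0.81, both called, but 0.36 and -0.11 with the poly-A scaling. With the mean of a gene's probe sets, MAX, MNT and MLX were not called (-0.11, -0.17 and -0.26). That mean also holds the dim sets left out of the tests, which lie near background, so it can understate a change. MXD1, MXD3 and MLXIP were not called, at -0.09, -0.43 and -0.39. The second set of MLXIP, 202519_at, was called (-0.96, adjusted p = 0.0038) in the fit of all probe sets. The median difference of the 9 genes was -0.67, against -0.13 for all genes. Of the 18 probe sets 9 were called, each of the 9 lower, where 42.3% of all probe sets were called, 13.4% higher and 28.9% lower. In the added fit of all probe sets, where 42.3% were called, the set 212346_s_at of MXD4 was called higher (0.59, adjusted p = 0.0161, but -0.34 with the poly-A scaling), and 212347_x_at (adjusted p = 0.0578) and 210778_s_at (0.35, adjusted p = 0.111) were not called. The gene call for MXD4 was lost without MM1S control 1 (0.40), MM1S Zalypsis 2 (0.50), OPM1 control 2 (0.52) or OPM1 Zalypsis 2 (0.52), and that of 212346_s_at without MM1S control 1, MM1S Zalypsis 2 or OPM1 Zalypsis 1. Lower calls were 67.0% of all calls among genes, 52.7% after quantile normalization and 92.6% with the poly-A scaling, and the medians of all genes were 0.03 and -0.81 with these.

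Without treatment the lines differed in 7 of the 9 genes, where 63.7% of all genes were called, 28.6% higher and 35.2% lower in OPM1-labelled cells. By their brightest sets, control OPM1-labelled cells had higher signals of MYC, MAX, MXI1, MNT and MLXIP than control MM1S. Those of MXD3 and MGA were lower. MXD3 passed the filter on low values through MM1S: its mean was 20.4 ± 5.84 on the OPM1 controls, under the 27.3 that a gene's mean had to reach, against 236 ± 31.8 on the MM1S controls (SD, n = 2), so its log2 difference of -2.36 is a description only. MNT had signals of 385 ± 30.3 on the OPM1 controls and 158 ± 24.7 on the MM1S controls (log2 1.14). MLXIP was higher by both bright sets (0.70 and 1.42). MAX, MXI1 and MYC were higher by 0.64, 0.62 and 0.53, but the mean of all MAX sets, dim ones included, was not called (0.11). MYC was not called without OPM1 control 2 (0.20). The set 226275_at of MXD1 was not called (0.12), while its other bright set, 228846_at, was higher, with 111 and 94.0 on the OPM1 controls, against 42.6 and 37.7 on the MM1S controls (log2 0.90, adjusted p = 4.2e-05). In the added fit the 3 sets of MXD4 were lower in OPM1-labelled cells, with log2 differences of -0.53 for 210778_s_at (adjusted p = 0.0013), -0.44 for 212346_s_at (adjusted p = 0.0083) and -0.56 for 212347_x_at (adjusted p = 0.0129), where 60.4% of all probe sets were called. The calls of the last 2 were lost without MM1S control 1, and that of 212347_x_at also without OPM1 control 2. MGA was lower by 0.46 on the log2 scale by its brightest set, a call lost without MM1S control 1 (-0.40). Its other tested sets, 212945_s_at and 230848_s_at, gave -0.13 and 0.21 and were not called. Scaled by the poly-A controls, which were near background on the MM1S arrays, the 9 genes were lower in OPM1-labelled cells, as were 99.2% of all genes called. Of the 18 probe sets 8 were higher and 3 lower, where 60.4% of all probe sets were called, 26.7% higher and 33.7% lower. Without OPM1 control 1, 9 were higher and 1 was lower, and without MM1S control 1, 7 were higher and 1 was lower.

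Genes that control MYC transcription or its mRNA moved both ways. Of 17 tested, 3 rose and 5 fell in MM1S, and 2 rose and 10 fell in OPM1-labelled cells, with median log2 changes of -0.15 and -0.51. In all, calls made up 47.1% in MM1S and 70.6% in OPM1-labelled cells, against 37.6 and 63.9% of all genes. IRF4, which activates MYC in myeloma cells and is also a plasma cell marker, averaged 1012 ± 127 on the treated MM1S arrays, against 4383 ± 727 on the control MM1S arrays (log2 -2.08, adjusted p = 1.6e-09). The summed plasma cell markers, IRF4 among them, were also lower there. The sum was 23867 to 24719 on the treated MM1S arrays, against 31867 to 33792 on the control MM1S arrays. The part of these markers in the result was not tested. In OPM1-labelled cells IRF4 averaged 331 ± 50.5 with Zalypsis, against 318 ± 46.5 without, and was not called. There it was called higher after quantile normalization (0.40) and lower with the poly-A scaling (-1.27). The mRNA-binding genes IGF2BP2 (-1.64 in MM1S, -3.25 in OPM1-labelled cells) and IGF2BP3 (-3.78 in OPM1-labelled cells) fell by their brightest sets. The other tested set of IGF2BP2 gave 0.03 and -0.01 and was not called, and those of IGF2BP3 gave -3.99, called, and -0.53, not called, in OPM1-labelled cells. IGF2BP3 read 77.1 and 80.2 on the treated OPM1 arrays, against 1434 and 1553 on the control OPM1 arrays, and at most 13.8 in MM1S. BRD2, a BET bromodomain gene, rose in both lines, to 2741 and 2828 on the treated MM1S arrays, against 1271 and 1093 on the control MM1S arrays, and to 4256 and 4069 on the treated OPM1 arrays, against 1344 and 1233 on the control OPM1 arrays. Its log2 changes were 1.22 and 1.67, and its 2 other tested sets rose too in MM1S. The P-TEFb kinase gene CDK9 had changes of 0.64 and 0.94, both called, and its other set was not called in MM1S (0.25). In OPM1-labelled cells the poly-A scaling put BRD2 at -0.39 and CDK9 at -0.82, and quantile normalization raised the count of rises to 5. Without MM1S control 2 or MM1S Zalypsis 1, the count of rises in MM1S was 1 and CDK9 was not called (adjusted p up to 0.130).

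Of 13 genes of MYC protein turnover, 0 rose and 3 fell in MM1S, and 1 rose and 7 fell in OPM1-labelled cells, with median log2 changes of -0.09 and -0.86. Calls in either direction made up 23.1% in MM1S and 61.5% in OPM1-labelled cells, against 37.6 and 63.9% of all genes. The share in OPM1-labelled cells was thus near that of all genes. By direction, 0% rose and 23.1% fell in MM1S, against 16.4 and 21.1% of all genes. In OPM1-labelled cells 7.69% rose and 53.8% fell, against 25.4 and 38.5%. GSK3B, the kinase that marks MYC for FBXW7, fell (log2 -2.21 and -2.47), to a mean of 106 ± 1.05 on the treated MM1S arrays, against 605 ± 49.7 on the control MM1S arrays, and 28.5 ± 2.39 on the treated OPM1 arrays, against 302 ± 19.0 on the control OPM1 arrays. Of its 3 other tested sets 2 fell in both lines and 1 was called in neither (-0.11 and -0.28). FBXW7, the substrate subunit of a MYC ubiquitin ligase, fell by its brightest set (-1.87 and -2.13) and by 2 further sets in both lines, but another of its sets was called higher in both (0.74 and 1.36, or 0.93 and 0.0097 with the poly-A scaling). The mitotic kinase gene PLK1 rose in OPM1-labelled cells (0.62), a call lost without OPM1 control 1 (adjusted p = 0.0740), and was at -0.94 with the poly-A scaling.

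Of 14 coactivators and partners of MYC, 0 rose and 6 fell in MM1S, and 2 rose and 7 fell in OPM1-labelled cells, with median log2 changes of -0.13 and -0.47. The shares called either way were 42.9% in MM1S and 64.3% in OPM1-labelled cells, near the 37.6 and 63.9% of all genes. By direction, 0% rose and 42.9% fell in MM1S, against 16.4 and 21.1% of all genes. In OPM1-labelled cells 14.3% rose and 50% fell, against 25.4 and 38.5%. TRRAP, the scaffold that brings acetyltransferases to MYC, fell in both lines. It averaged 344 ± 38.6 on the treated MM1S arrays, against 1129 ± 160 on the control MM1S arrays (log2 -1.62), and 61.1 ± 24.9 on the treated OPM1 arrays, against 702 ± 9.44 on the control OPM1 arrays. RUVBL1, an ATPase of the same complexes, fell too (-1.20 and -1.79). KAT2A, an acetyltransferase that works with TRRAP, rose in OPM1-labelled cells (1.13), with 739 and 628 on the treated arrays, against 281 and 305 on the control arrays. PRMT5 rose there too (0.47), though 1 of its 2 other tested sets was not called (0.24), a call lost without OPM1 control 1 or OPM1 Zalypsis 2. With the poly-A scaling KAT2A was at -0.63 and PRMT5 at -1.45, and after quantile normalization 4 of the 14 genes were higher.

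The SIN3 corepressor, which the MXD proteins and MNT recruit, and the partners of MGA in its polycomb complex held both risen and fallen genes. Of 11 SIN3 complex genes, 1 rose and 3 fell in MM1S, and 2 rose and 6 fell in OPM1-labelled cells, with median log2 changes of -0.05 and -0.45. In all, calls made up 36.4% in MM1S and 72.7% in OPM1-labelled cells, against 37.6 and 63.9% of all genes. In MM1S the 2 shares are near each other. By direction, 9.09% rose and 27.3% fell in MM1S, against 16.4 and 21.1% of all genes. In OPM1-labelled cells 18.2% rose and 54.5% fell, against 25.4 and 38.5%. ARID4B fell in both lines (-1.38 and -2.28), though its other tested set was not called (-0.33 and -0.12), SUDS3 in MM1S (-0.54) and SAP30 in OPM1-labelled cells (-1.70). SAP18 rose in both lines (0.52 and 1.45) and BRMS1 in OPM1-labelled cells (1.41). The rise of SAP18 in MM1S was lost without MM1S control 2 or MM1S Zalypsis 1. With the poly-A scaling the brightest sets of SAP18 and BRMS1 were at -0.63 and -0.40 in OPM1-labelled cells. The 2 other tested sets of SAP18 rose more there (3.04 and 3.09), and with that scaling they gave 0.84 and 0.87. Of 10 partners of MGA, 2 rose and 3 fell in MM1S, and 0 rose and 6 fell in OPM1-labelled cells, with median log2 changes of -0.07 and -0.38. Calls in either direction made up 50% in MM1S and 60% in OPM1-labelled cells, against 37.6 and 63.9% of all genes. The share in OPM1-labelled cells is near that of all genes. Split by direction, 20% rose and 30% fell in MM1S, against 16.4 and 21.1% of all genes. In OPM1-labelled cells 0% rose and 60% fell, against 25.4 and 38.5%. EHMT1, a histone H3 lysine methyltransferase, averaged 25.8 ± 4.39 on the treated MM1S arrays, against 271 ± 21.8 on the control MM1S arrays, and 14.5 ± 4.57 on the treated OPM1 arrays, against 348 ± 48.4 on the control OPM1 arrays (log2 -2.39 and -3.03). YAF2 fell in both lines (-0.89 in MM1S and -1.21 in OPM1-labelled cells). PCGF6, the subunit that names the complex, did too (-0.43 and -1.44). Its MM1S call was lost without MM1S control 2 or either treated MM1S array, and after quantile normalization (-0.28). The rises of EHMT2 (0.48) and E2F6 (0.45) in MM1S were not called without MM1S control 2 or MM1S Zalypsis 1, nor that of E2F6 without MM1S Zalypsis 2, and the 2 other tested sets of EHMT2 were not called there (-0.17 and 0.07). After quantile normalization 4 of the 10 were called higher in OPM1-labelled cells.

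Of 38 tested genes that MYC activates, 0 rose and 12 fell in MM1S, and 3 rose and 19 fell in OPM1-labelled cells, with median log2 changes of -0.25 and -0.35, against 0.02 and -0.07 for all genes. The shares called either way were 31.6% in MM1S and 57.9% in OPM1-labelled cells, near or under the 37.6 and 63.9% of all genes. Split by direction, 0% rose and 31.6% fell in MM1S, against 16.4 and 21.1% of all genes. In OPM1-labelled cells 7.89% rose and 50% fell, against 25.4 and 38.5%. The count of falls in MM1S was 6 without MM1S control 1, where 2 genes rose, and 7 without MM1S Zalypsis 2. PUS7, a pseudouridine synthase gene, read 81.0 and 75.9 on the treated OPM1 arrays, against 1342 and 1193 on the control OPM1 arrays, and 159 and 170 on the treated MM1S arrays, against 403 and 363 on the control MM1S arrays (log2 -3.56 and -1.08). POLR1B, a subunit of RNA polymerase I, fell in both lines (-0.67 in MM1S and -2.70 in OPM1-labelled cells). In OPM1-labelled cells 1 of its 3 other tested sets gave 0.13 and was not called, and in MM1S only 1 of the 3 was called lower. RIOX2, a ribosome-modifying oxygenase, also fell in both (-0.73 and -0.44). Its OPM1 call was lost without OPM1 control 2 or OPM1 Zalypsis 1, and after quantile normalization (-0.07). EIF5A, a translation factor gene, and IMPDH2, which makes guanine nucleotides, rose in OPM1-labelled cells (2.00 and 0.49), where with the poly-A scaling they were at -0.07 and -1.48. EIF5A varied widely there, with means of 3938 ± 801 on the treated arrays, against 1139 ± 906 on the control arrays. Without OPM1 control 2, or after quantile normalization, the count of rises in these cells was 6.

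Of 5 tested genes that MYC represses, 2 rose and 1 fell in MM1S, and 3 rose and 1 fell in OPM1-labelled cells, with median log2 changes of 0.04 and 0.35. In all, calls made up 60% in MM1S and 80% in OPM1-labelled cells, against 37.6 and 63.9% of all genes, on a list of 5. The 3 rises in OPM1-labelled cells include NDRG1, at 25.78 and 22.85 on the treated OPM1 arrays, against 13.28 and 11.05 on the control OPM1 arrays. These signals lie under the 27.3 of the filter, which NDRG1 passed through MM1S, so its log2 change of 0.35 there is a description only. That call was lost without OPM1 control 2 or OPM1 Zalypsis 1, and with the poly-A scaling the value was -0.10. GADD45A, a stress gene, rose in both lines (1.31 and 1.17). CDKN1A, the gene of the p21 brake on cyclin-dependent kinases, rose in MM1S (1.93) but fell in the OPM1-labelled line (-1.78). CDKN1B, which encodes p27, averaged 292 ± 21.7 on the treated OPM1 arrays, against 68.1 ± 4.75 on the control OPM1 arrays (log2 1.70), and NDRG1 fell in MM1S (-0.67). With the poly-A scaling GADD45A and CDKN1B were at -0.76 and -0.01 in OPM1-labelled cells. Of 7 other factors that read E-boxes, 0 rose and 2 fell in MM1S, and 1 rose and 2 fell in OPM1-labelled cells, with median log2 changes of 0.12 and -0.23. Calls in either direction made up 28.6% in MM1S and 42.9% in OPM1-labelled cells, both under the 37.6 and 63.9% of all genes. By direction, 0% rose and 28.6% fell in MM1S, against 16.4 and 21.1% of all genes. In OPM1-labelled cells 14.3% rose and 28.6% fell, against 25.4 and 38.5%. The count of rises in MM1S was 1 without MM1S control 1, MM1S Zalypsis 2 or either OPM1 control. TFEB, a regulator of lysosome genes, fell in both lines (-0.67 and -2.44), MITF in MM1S (-1.51) and SREBF1, a regulator of lipid synthesis, in OPM1-labelled cells (-1.11). TFE3, a relative of TFEB, rose in OPM1-labelled cells (0.86, and -0.78 with the poly-A scaling), and after quantile normalization 3 of the 7 were higher there.

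**Figure D3:**
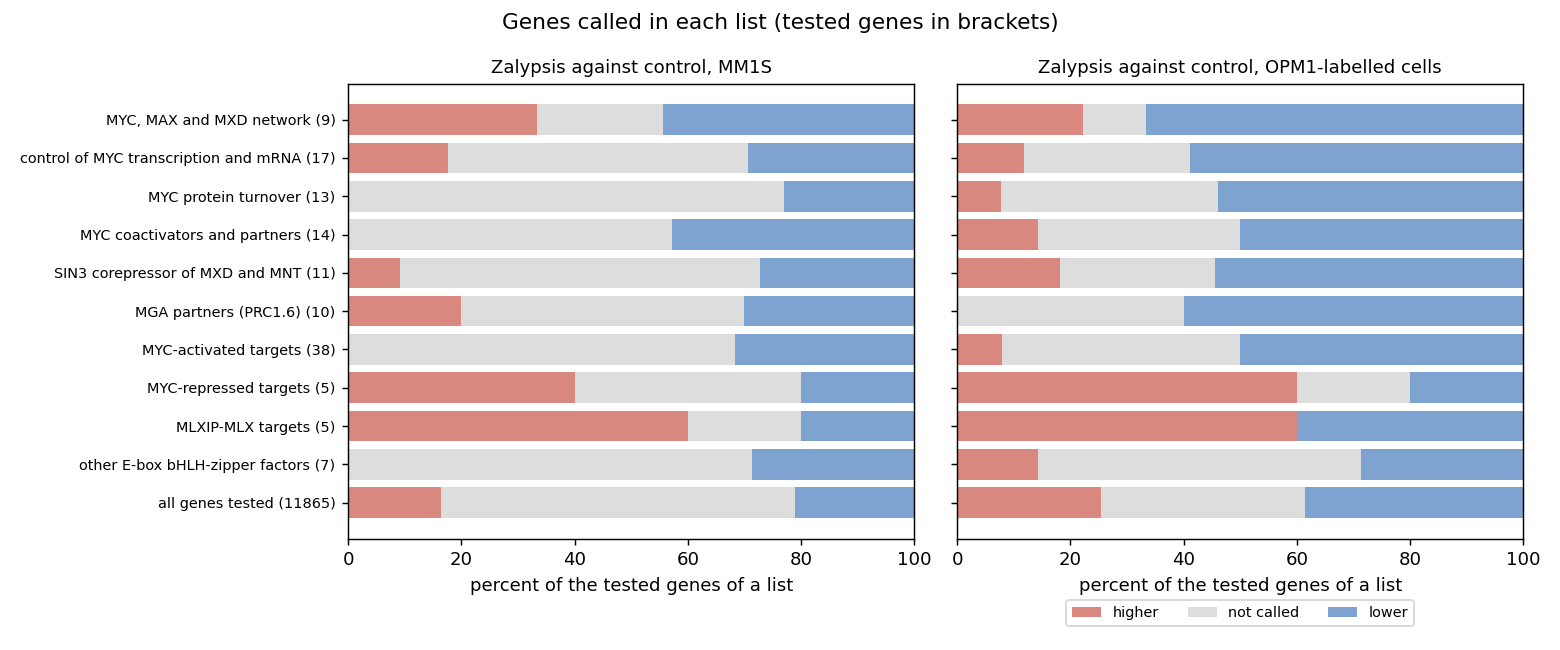
Percent of the tested genes of each list called higher, not called or called lower with Zalypsis in MM1S and OPM1-labelled cells, with all 11865 genes at the bottom. Lower calls outnumber higher ones in OPM1-labelled cells except among the MYC-repressed and MLXIP-MLX targets, whose higher calls are lost with the poly-A scaling.

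Among targets of the MLXIP and MLX pair, TXNIP and KLF10 rose and HK2 fell in both lines, and ARRDC4 rose in OPM1-labelled cells, but with the poly-A scaling no rise was called in OPM1-labelled cells. Of 5 tested, 3 were called higher and 1 lower in MM1S, and 3 higher and 2 lower in OPM1-labelled cells, with median log2 changes of 0.47 and 1.03. The shares called were 80% in MM1S and 100% in OPM1-labelled cells, against 37.6 and 63.9% of all genes. The 3 in MM1S include ARRDC4, whose MM1S signals lie near or under the 27.3 of the filter and which passed it through OPM1-labelled cells. TXNIP, which restrains glucose uptake and thioredoxin, read 1577 and 1414 on the treated OPM1 arrays, against 471 and 657 on the control OPM1 arrays (log2 1.37 ± 0.18, adjusted p = 4.6e-07). On the treated MM1S arrays it read 2009 and 1610, against 1493 and 1108 on the control MM1S arrays (log2 0.47 ± 0.18, adjusted p = 0.0378). Neither pair of groups overlapped, but the MM1S call was lost without MM1S control 2, MM1S Zalypsis 1 or either treated OPM1 array (adjusted p up to 0.339). The 2 other tested sets of TXNIP gave 1.92 and 2.02 in OPM1-labelled cells.

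ARRDC4, a relative of TXNIP, read 883 and 646 on the treated OPM1 arrays, against 149 and 148 on the control OPM1 arrays (log2 2.13 ± 0.14, adjusted p = 9.3e-12). In MM1S it was near background, at 27.6 and 26.6 with Zalypsis, against 11.5 and 8.32 without (log2 0.50, adjusted p = 0.0067, a description only), a call lost without MM1S control 2 (adjusted p = 0.0656). KLF10, a growth-inhibiting factor gene, read 561 and 469 on the treated MM1S arrays, against 272 and 284 on the control MM1S arrays, and 468 and 357 on the treated OPM1 arrays, against 190 and 179 on the control OPM1 arrays (log2 0.81 and 1.03). In OPM1-labelled cells the values with the poly-A scaling were -0.57 for TXNIP, 0.14 for ARRDC4 and -0.58 for KLF10. Without MM1S control 2 the count of rises in MM1S was 1, and without either OPM1 control the count of falls there was 2.

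HK2, the hexokinase that traps glucose in the cell, read 181 and 119 on the treated MM1S arrays, against 521 and 390 on the control MM1S arrays, and 172 and 170 on the treated OPM1 arrays, against 1923 and 1336 on the control OPM1 arrays. Its log2 changes were -1.43 and -3.01, and its 2 other tested sets gave -0.38 to -0.08. PFKFB3, which makes an activator of glycolysis, read 66.7 and 62.9 on the treated OPM1 arrays, against 359 and 262 on the control OPM1 arrays (log2 -1.81, adjusted p = 1.9e-10), and was not called in MM1S (-0.33, adjusted p = 0.0729). The difference between the lines was 0.90 for TXNIP (adjusted p = 0.0050) and 1.63 for ARRDC4 (adjusted p = 7.0e-07, with its MM1S arrays near background), but with the poly-A scaling it was -0.83 and -0.79. For HK2 it was -1.58 and for PFKFB3 -1.48, both called, also after quantile normalization. The poly-A scaling, which cannot decide on differences between the lines, gave -1.89 and -1.23. By the 2 other tested sets of HK2 the difference was -0.29 and -0.05, and neither was called.

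**Figure D4:**
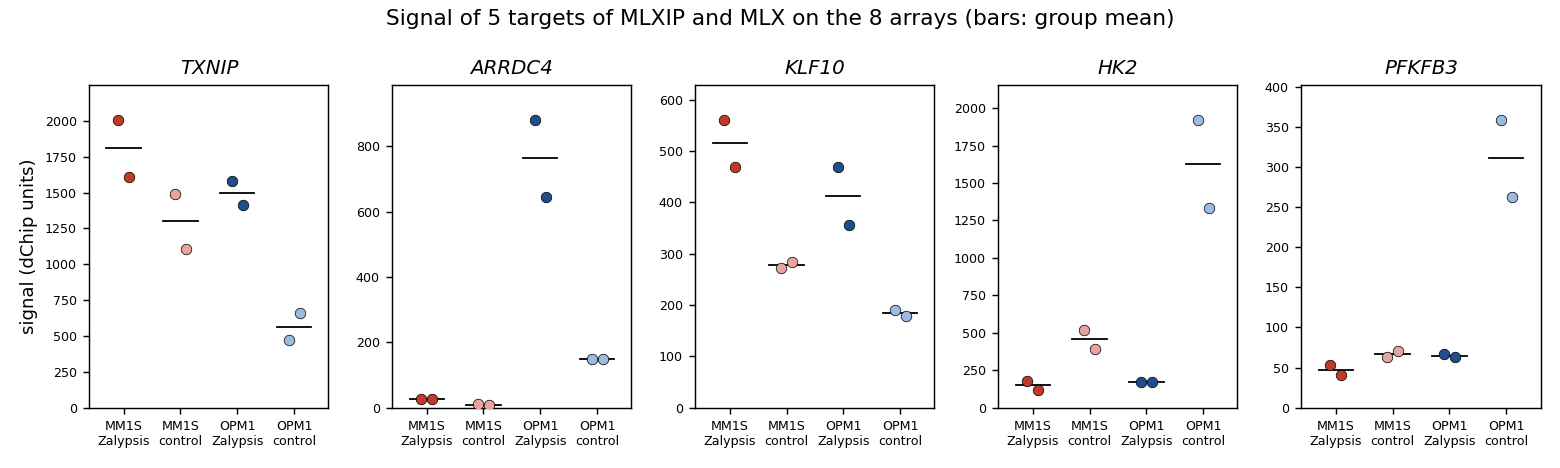
Signal (linear axes from 0) of 5 targets of MLXIP and MLX on the 8 arrays, with a bar at each group mean. TXNIP, ARRDC4 and KLF10 lie higher and HK2 lower on the treated than on the control arrays of both lines, and with the poly-A scaling TXNIP and KLF10 are lower in treated OPM1-labelled cells.

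MLXIP and MLX are known to read a double site, a pair of near E-boxes 5 bases apart, and the promoters of TXNIP and ARRDC4 are printed to show the letters that such a site would have in the genes most tied to this pair. A double pattern of CACGNG, 5 bases of any kind and CACGNG, in which CACGTG can stand for either part, was searched on both strands and was found in 0.0456% of the 35116 windows, 16 in all. It was present in 1 of the 2 windows of TXNIP (chr1:145996580-145996829, minus strand), beginning 88 bases before the gene start. The window of ARRDC4 (chr15:97960453-97960702, plus strand) holds CACGTG, 210 bases before the gene start, and not the double pattern. Among the other targets, HK2 and PFKFB3 had CACGTG in 1 of 2 windows each. Capitals mark the fixed parts of the double site in TXNIP and the E-box in ARRDC4.
TXNIP: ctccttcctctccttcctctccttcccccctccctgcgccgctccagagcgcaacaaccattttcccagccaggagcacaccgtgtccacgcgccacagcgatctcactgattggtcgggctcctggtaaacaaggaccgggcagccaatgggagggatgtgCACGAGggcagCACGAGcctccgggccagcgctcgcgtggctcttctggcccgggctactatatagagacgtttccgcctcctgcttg
ARRDC4: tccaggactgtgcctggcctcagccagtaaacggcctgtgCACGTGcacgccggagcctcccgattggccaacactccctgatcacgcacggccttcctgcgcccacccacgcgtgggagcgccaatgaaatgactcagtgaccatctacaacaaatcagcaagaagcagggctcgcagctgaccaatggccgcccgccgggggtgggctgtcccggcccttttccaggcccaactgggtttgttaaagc
Neither run of letters is a measured binding site.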

How the data were processed

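The authors' deposited values are intensities per probe set from Affymetrix HG-U133 Plus 2.0 arrays, computed with dChip per the series design text, on a linear scale. How dChip was set, and any scaling to a baseline array, is not given in the sources used here. Per the labels, 100 ng of total RNA went through a 2-cycle kit, while the design text names another labelling kit.

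Probe sets were named through the platform's gene table, with symbols updated by gene ID to RefSeq. Of 54675 probe sets, 62 were controls, 41091 carried 1 symbol, 1801 several and 11721 none. Each gene stood on the probe set with the highest mean log2(signal + 32), the 40% of genes with the lowest mean were left out (under a signal of 27.3), and 11865 genes or 21642 probe sets were tested. limma 3.58.1 in R 4.3.3 fitted the 4 group means over all 8 arrays, with a trend in the prior spread, and p-values were adjusted by Benjamini-Hochberg over all genes or probe sets. The fit had 4 residual degrees of freedom and a prior of 16.99. Gene values come from the gene fit and further probe sets from the probe set fit. The fit was tested on simulated data.

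The 10 genes and the 9 lists were chosen with earlier results of these data known. All 10 genes are named whatever their values, with PVT1, TXNIP, ARRDC4 and the 5 genes most like MYC. From each list the text names at most the 2 largest called rises and the 2 largest called falls per line. Added after their values were seen were MYCN, MYCL, PFKFB3, PCGF6 and POLR1B in MM1S, and YAF2, RIOX2 and NDRG1 in OPM1-labelled cells. Alternatives were other pseudocounts and filters, quantile normalization, scaling by the poly-A controls, no trend, a replicate block, other probe set rules, the authors' 2-fold rule and each array left out. Kept after the data were seen were the MXD4 sets under the host gene's name and the second set of MXD1. Promoter windows came from RefSeq, GRCh38.p14. The array files name no genome build.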

Additional observations from a re-analysis of the deposited data

Results flagged for a closer look

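The test of the difference itself, OPM1-labelled minus MM1S, singled out 6 of the 9 genes. The differences in log2 change were -1.92 for MXI1, -1.76 for MYC, -0.77 for MLX, -0.71 for MNT, -0.67 for MAX and -0.48 for MGA. MXI1, MYC and MGA fell in both lines, and further in OPM1-labelled cells. MAX and MLX fell in OPM1-labelled cells and were not called in MM1S, and MNT rose in MM1S and was not called in OPM1-labelled cells. With the poly-A scaling, whose controls lie near background on the MM1S arrays, the value for MGA was 0.0081. MXD4, tested in the added fit only, differed in the other direction (0.62), and with that scaling by -0.67, not called.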

How the results depend on the processing

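Over the alternatives, 649 values of member genes kept their direction and their side of the threshold, 55 lost a call, 17 gained one and 19 turned sign. The falls of MYC, MAX, MXI1, MLXIP and MGA in OPM1-labelled cells and of MYC in MM1S kept both under each alternative that tested them. Quantile normalization turned the sign of MLX in MM1S (0.00035), MNT in OPM1-labelled cells (0.17) and the difference for MXD1 (0.23). The poly-A scaling turned MXD1 (-0.78) and MXD3 (-0.18) in OPM1-labelled cells, the difference for MGA (0.0081) and, between the controls, MYC (-3.66), MAX (-3.42), MXD1 (-3.37), MXI1 (-3.47), MNT (-2.65) and MLXIP (-2.98). The mean of a gene's sets, dim ones included, turned MNT in OPM1-labelled cells (0.036) and the difference for MXD1 (0.11), which its other bright set turned too (0.43). With an array left out, MLX in MM1S ranged over -0.28 to 0.13 and the difference for MXD1 over -0.33 to 0.15. The cause was not tested.

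The authors' 2-fold rule, which makes no use of spread, called 1 gene in MM1S, 5 in OPM1-labelled cells, 2 for the difference and 2 between controls, and 3, 5 and 4 probe sets in MM1S, for the difference and between controls. Of all 11865 genes it called 447 higher and 1175 lower in MM1S, 1327 and 3163 in OPM1-labelled cells, 912 and 2636 for the difference and 1642 and 2250 between controls, against 1950 and 2507, 3012 and 4567, 1821 and 3703, and 3390 and 4173 by the adjusted p. Of all 21642 probe sets the 2-fold rule called 847 higher and 2358 lower in MM1S. It called 1728 and 4939 for the difference, and 2948 and 4153 between controls. The mean of sets, which takes in the dim ones, called 3 genes for the difference. Of all 11865 genes it called 1788 higher and 3351 lower. Without probe sets of shared types, 4 genes were called in OPM1-labelled cells, 3 for the difference and 4 between controls. MYC, MAX, MXD3 and MLX left this test, as their bright sets are of those types. Only MXD1, MXI1, MNT, MLXIP and MGA stayed in it. Among all 8995 genes so tested, 2277 were higher and 3468 lower in OPM1-labelled cells. The counts were 1372 and 2850 for the difference, and 2635 and 3070 between controls. The poly-A scaling called 18 probe sets between controls, where 152 of all 21642 probe sets were called higher and 21332 lower. Probe sets called for the difference were 5 to 10 with an array left out, and 5 without MM1S control 2 or MM1S Zalypsis 1. The rises of MXD1 and MXD3 in OPM1-labelled cells were lost with no filter on low values (adjusted p = 0.100 and 0.0858), as were the rise of MXD1 in MM1S (0.0699) and the difference for MGA (0.105).

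With the replicate block, 8, 8, 8 and 7 genes were called in MM1S, in OPM1-labelled cells, for the difference and between controls, against 7, 8, 6 and 7 without it, with MAX in MM1S (adjusted p = 0.0106) and the differences for MXD3 (0.0419) and MLXIP (0.0428) added. Calls over all genes grew too, to 2561 higher and 2900 lower in MM1S, 3285 and 4816 in OPM1-labelled cells, 2182 and 4162 for the difference and 3726 and 4499 between controls. Same-numbered arrays of a line correlated in their deviations at 0.212 in MM1S and 0.209 in OPM1-labelled cells, and with 2 pairs a line they share only a number.

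With 2 arrays a group, the number of arrays limits the precision. The 9 dim probe sets of the network are near background on all arrays and say nothing on these genes.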
